A study of Mus musculus with 8 samples.

Results

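The blood-cell miRNAs miR-142a, miR-150, miR-451a and miR-144 were followed through the small RNA libraries of mouse bone marrow-derived macrophages (BMDMs) that had been grown with macrophage colony-stimulating factor (M-CSF) or cut off from it. The members were set by name in a rule that uses no measured value, though with earlier results of these data known, as miRNAs of all leukocytes (mmu-miR-142a-3p and mmu-miR-142a-5p), of lymphocytes (mmu-miR-150-5p) and of the erythroid lineage (mmu-miR-451a and mmu-miR-144-3p). All 5 were listed in both deposited tables, among 1055 mature miRNAs and 3506 features listed in either. The cells came from femurs and tibias of male C57BL/6J mice aged 10 weeks and had been grown for 7 days in medium conditioned by L929 cells, the source of M-CSF. Untreated control cells were compared with cells held for 36 h in medium from which M-CSF had been withdrawn, a treatment that induces apoptosis of macrophages. The Ion Proton run held 2 control and 2 withdrawal libraries, described in the methods as biological replicates. The SOLiD run held a control and a withdrawal library made from total RNA, and another such pair made from gel-purified 25 to 40 nt RNA, with 1 library for each combination. For the Ion Proton libraries the extract is small RNA per the labels and total RNA per the methods.

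Depth, taken as the reads on listed features, lay between 6053130 and 7760142 for the Ion Proton run and between 4039837 and 12178454 for the SOLiD run. Levels are given as counts per 1000000 listed reads (CPM) for the Ion Proton run and as the deposited reads per 1000000 (RPM) for the SOLiD run, without division by length, since the mature miRNAs printed here are all of 20 to 23 nt. These lengths lie below the range of the gel-purified 25 to 40 nt RNA, and how miRNA reads came into those libraries was not tested. The share of listed reads that fell on miRNA features was 40.4 and 41.6% in the Ion Proton controls and 30.0 and 30.3% after withdrawal. It was 82.2% in the SOLiD control of total RNA against 41.3% after withdrawal, and 87.4% against 45.1% in the 25 to 40 nt RNA. A miRNA whose level followed the miRNA class would therefore have lost level on the scale of listed reads, so a second scale, reads per 1000000 miRNA reads (miRNA RPM), is given beside the first. Myeloid miRNAs were present in both runs, but the SOLiD libraries also held miRNAs that mark epithelium, muscle and liver, at a summed level of 6998 to 10701 RPM for 17 markers of other tissues, against 29.1 to 36.7 CPM for 9 such markers in the Ion Proton libraries. Intervals of single libraries are 95% and cover counting error only.

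The mature miRNA is cut from a hairpin precursor and guides Argonaute proteins to messenger RNAs that pair with its seed, bases 2 to 8 from its 5′ end. miR-142 is made in cells of the haematopoietic system at large, macrophages included, and both arms of its hairpin can act as guides. miR-144 and miR-451a are processed from a common transcript that is induced during red cell formation. The miR-451a hairpin is too short for Dicer and is cut by Argonaute 2 itself. miR-150 is abundant in mature B and T lymphocytes and falls when these are activated. In cultures of bone marrow-derived macrophages, miR-142 marks the macrophages themselves, while miR-150, miR-144 and miR-451a mark other lineages of marrow and blood.

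The sequences of the miR-142a arms, miR-451a and miR-144-3p are shown because each of the 4 has a seed of its own, so that they direct Argonaute to separate sets of sites. They were taken from RefSeq (GRCm38.p6), and the capitals mark the seed.
mmu-miR-142a-5p: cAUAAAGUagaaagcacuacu
mmu-miR-142a-3p: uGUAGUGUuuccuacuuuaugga
mmu-miR-451a: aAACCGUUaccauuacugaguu
mmu-miR-144-3p: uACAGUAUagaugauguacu
No other mature miRNA among the 1679 in the RefSeq table carried any of these seeds, and no other mature miRNA of the Ion Proton table had the full sequence of any of the 4. The Mir142 hairpin, which holds both arms of miR-142a, is listed there as a feature of its own. The hairpins show where the arms lie, with the mature products in capitals (both arms of miR-142a, the single product of miR-451a, and both arms of miR-144).
Mir142: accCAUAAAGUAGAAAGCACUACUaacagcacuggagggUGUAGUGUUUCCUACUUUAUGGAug
Mir451a: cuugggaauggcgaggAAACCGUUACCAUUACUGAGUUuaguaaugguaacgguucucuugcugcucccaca
Mir144: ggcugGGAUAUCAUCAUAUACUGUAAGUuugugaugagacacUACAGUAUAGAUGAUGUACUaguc
In the Mir451a hairpin the mature sequence runs from the 5′ arm of the stem into the loop.

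On mm10 (GRCm38), miR-142a-5p lies at chr11:87756867-87756887 and miR-142a-3p at chr11:87756903-87756925, both on the plus strand within Mir142 (chr11:87756864-87756927). This gene lies in an intron of the long non-coding RNA gene Mir142hg (chr11:87755577-87757270). Mir142b (chr11:87756841-87756955) covers the same place on the minus strand, and its product miR-142b is the exact reverse complement of 20 nt of miR-142a-3p. miR-144-3p (chr11:78073047-78073066) and miR-451a (chr11:78073186-78073207) lie on that chromosome too, on the plus strand, in Mir144 (chr11:78073005-78073070) and Mir451a (chr11:78073170-78073241), whose hairpins are 99 bp apart. Mir451b occupies the interval of Mir451a on the minus strand, and 16 nt of miR-451a (aaccguuaccauuacu) also occur in the Mir451b hairpin. miR-150-5p lies at chr7:45121762-45121783, on the plus strand within Mir150 (chr7:45121757-45121821). Whether the counting used strand is not given in the sources used here. In the Ion Proton table miR-142b had 0, 1, 0 and 0 reads, where miR-142a-3p on the other strand of the same bases had 1102 to 1807, so reads there were not listed under both. The SOLiD table does not list miR-142b and neither table lists miR-451b, so for these antisense partners no such value could be given.

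In the Ion Proton run, the leukocyte miRNA miR-142a-5p fell after M-CSF withdrawal on the scale of listed reads, whereas its share of miRNA reads was nearly the same in all 4 libraries. The 5p arm had 756 and 784 CPM in the controls and 566 and 544 CPM after withdrawal. The 3p arm had 224 and 252 CPM in the controls and 169 and 193 CPM after withdrawal. For both arms the lower control lay above the higher withdrawal library. How many of all features were apart in this way was not counted. With 2 against 2 libraries, such a separation can give no exact permutation p under 0.333. Of the 186 mature miRNAs with a mean of at least 10 CPM, 150 had a log2 fold change below 0 in the fit described below. In miRNA RPM, the 5p arm had 1872 and 1884 in the controls against 1888 and 1794 after withdrawal, and the 3p arm 555 and 605 against 563 and 638. On that scale the groups overlapped for both arms.

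**Figure D1:**
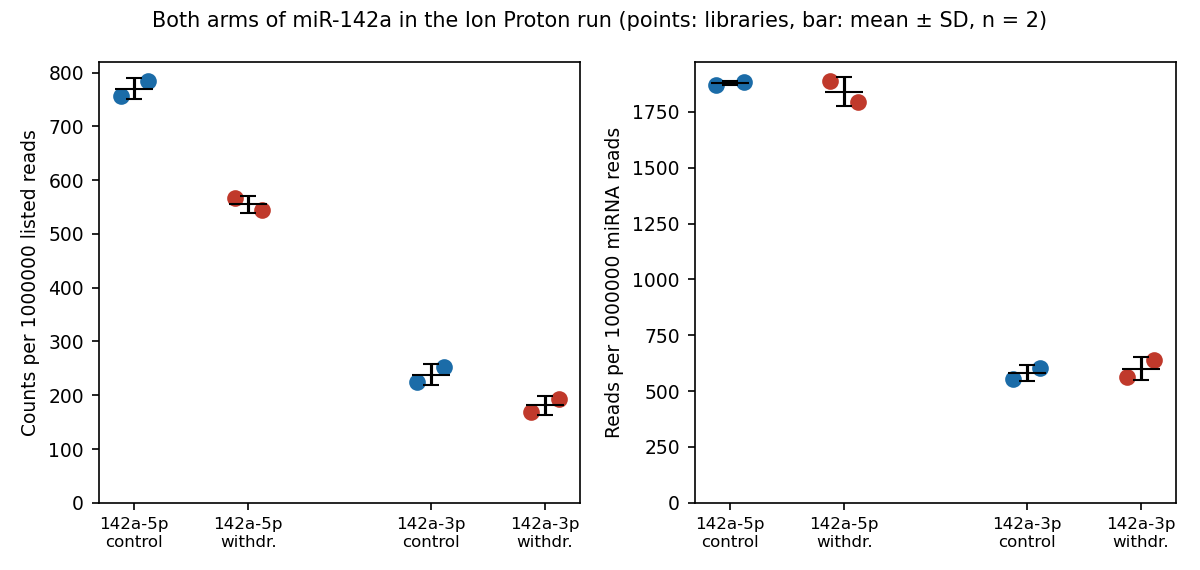
Level of both arms of miR-142a in the 4 Ion Proton libraries (points), with mean and SD (bars, n = 2), as CPM on the left and miRNA RPM on the right. On the left the control and withdrawal points are apart for both arms (756 and 784 against 566 and 544 CPM for the 5p arm), and on the right they overlap.

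The edgeR quasi-likelihood fit over all 2029 features tested gave miR-142a-5p a log2 fold change of -0.42 (SE 0.071) with an adjusted p of 0.0174, and miR-142a-3p a log2 fold change of -0.34 (SE 0.12) with an adjusted p of 0.125. Thus 1 of the 5 members passed the threshold of 0.05, where 24.6% of all features and 14.7% of the 600 mature miRNAs passed, 8.97% and 13.3% of them with a fall. The change of the 5p arm was close to that of its class. Among the 186 mature miRNAs whose mean reached 10 CPM, the median log2 fold change was -0.37, with quartiles of -0.55 and -0.15, and 150 lay below 0. Of these 186, 73 passed the threshold with a fall and 5 with a rise. miR-142a-5p ranked 76 and miR-142a-3p 104 from the largest fall in that set. When normalization factors were taken from miRNA features, the log2 fold change of miR-142a-5p was -0.10 (adjusted p = 0.412). Without withdrawal replicate 1 or 2 the fold stayed at -0.42 and -0.40, with adjusted p-values of 0.0935 and 0.10. miR-142a-3p passed with DESeq2 (adjusted p = 0.0220) and without control replicate 1 (-0.53, adjusted p = 0.0414). In bulk RNA, fewer cells of a type and less of an RNA per cell cannot be told apart.

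The share of miRNA reads was also compared by permuting the library labels (exact two-sided permutation test), where 2 against 2 libraries can give no p under 0.333. miRNA RPM were 1878 ± 8.84 (SD, n = 2) in the controls and 1841 ± 66.3 (SD, n = 2) after withdrawal for miR-142a-5p (exact permutation p = 1.0). They were 580 ± 35.4 and 601 ± 52.5 (SD, n = 2 each) for miR-142a-3p (exact permutation p = 0.667). The design could not have passed the threshold in this test, so it bears on the size of the difference alone.

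In the SOLiD libraries of total RNA, miR-142a-5p had 675 RPM (95% Wilson interval 654 to 696) in the control and 198 RPM (191 to 206) after withdrawal. In the 25 to 40 nt RNA it had 292 RPM (281 to 304) in the control and 140 RPM (129 to 152) after withdrawal. The log2 ratio of RPM plus 1 was -1.76 in total RNA and -1.06 in the size selected RNA. The 258 mature miRNAs with at least 10 RPM in both libraries of total RNA had a median of -0.71, and the 262 in the size selected RNA a median of -0.81. In miRNA RPM, miR-142a-5p had 822 in the control and 480 after withdrawal in total RNA. In the size selected RNA it had 334 and 310. With 1 library per condition, these differences have no replicate check.

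The 3p arm was nearly missing from the SOLiD run. miR-142a-3p had 1 read in the control and 3 reads after withdrawal in total RNA, a ratio of RPM of 1.42 with an exact counting interval from 0.114 to 74.6. In the 25 to 40 nt RNA it had 1 read in the control and 15 reads after withdrawal, or 0.112 and 3.71 RPM, a ratio of 33.1 with an exact counting interval from 5.09 to 1393. It ranked between 359 and 829 among the 893 mature miRNAs of the SOLiD table, against 69 to 73 among the 737 of the Ion Proton table.

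The ratio of the arms, which does not depend on scaling, was far apart in the runs. Ion Proton libraries had 3.37 and 3.11 reads of the 5p arm for each read of the 3p arm in the controls and 3.35 and 2.81 after withdrawal. The mean log2 ratio was 1.70 ± 0.081 (SD, n = 2) in the controls and 1.62 ± 0.18 (SD, n = 2) after withdrawal (exact permutation p = 0.667). In SOLiD total RNA the ratio was 3896 in the control, with an exact counting interval from 699 to 153923, and 805 after withdrawal, from 275 to 3908. In the 25 to 40 nt RNA it was 2604 in the control and 37.7 after withdrawal. Reads assigned to the Mir142 hairpin itself, listed as a feature of its own, were few, with 10 to 41 reads in the Ion Proton libraries and 17 to 157 in the SOLiD libraries.

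The erythroid miRNA miR-451a was scarce in the Ion Proton run and abundant in the SOLiD run. It had 43 and 9 reads (5.54 and 1.25 CPM) in the Ion Proton controls and 28 and 39 reads (4.29 and 6.44 CPM) after withdrawal. In SOLiD total RNA it had 18626 reads (3227 RPM, 95% Wilson interval 3181 to 3273) in the control and 32379 reads (2659 RPM, 2630 to 2688) after withdrawal. In the 25 to 40 nt RNA it had 21332 reads (2394 RPM, 2362 to 2426) in the control and 16109 reads (3988 RPM, 3927 to 4049) after withdrawal. Its rank among mature miRNAs was 200 to 357 in the Ion Proton libraries and 23 to 47 in the SOLiD libraries.

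In CPM the Ion Proton groups overlapped for miR-451a, since 1 control was the lowest library and the other lay between the withdrawal libraries. In miRNA RPM they did not overlap, with 3.01 and 13.7 in the controls and 14.3 and 21.2 after withdrawal. How many of all features did not overlap on this scale was not counted. For miR-451a the nearest libraries, control replicate 1 and withdrawal replicate 1, had 43 and 28 reads. The counting intervals of miR-451a in them overlapped (4.11 to 7.46 and 2.97 to 6.21 CPM). Its log2 fold change was 0.70 (SE 0.71, edgeR adjusted p = 0.558), and without control replicate 1 it was 2.02 (adjusted p = 0.0488). The mean of the 2 controls was 8.37 ± 7.57 and that of the 2 withdrawal libraries 17.8 ± 4.90 miRNA RPM (SD, n = 2 each, exact permutation p = 0.333). In the SOLiD run the log2 ratio of RPM plus 1 was -0.28 in total RNA and 0.74 in the size selected RNA. In miRNA RPM, miR-451a was higher after withdrawal in both, with 3928 against 6435 in total RNA and 2739 against 8835 in the size selected RNA.

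miR-144-3p, the neighbour of miR-451a in the same cluster, was low in every library. It had 8 and 13 reads in the Ion Proton controls, 16 and 11 after withdrawal, 11 and 27 in SOLiD total RNA, and 13 and 12 in the 25 to 40 nt RNA, control before withdrawal. These were 1.03 to 2.45 CPM and 1.46 to 2.97 RPM, so the level was alike in both runs. The Ion Proton controls had 1.03 and 1.81 CPM and the withdrawal libraries 2.45 and 1.82 CPM. The upper control lay just under the lower withdrawal library, with overlapping counting intervals (1.06 to 3.10 and 1.01 to 3.25 CPM). The log2 fold change was 0.64 (SE 0.50, edgeR adjusted p = 0.443). The SOLiD ratios had counting intervals that spanned no change, at 1.16 (0.559 to 2.60) in total RNA and 2.04 (0.849 to 4.84) in the size selected RNA.

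The pair from this cluster therefore stood in separate proportions in the runs. There were 5.38 and 0.692 reads of miR-451a for each read of miR-144-3p in the Ion Proton controls and 1.75 and 3.55 after withdrawal. In the SOLiD libraries there were 1693 and 1199 in total RNA and 1641 and 1342 in the 25 to 40 nt RNA, control before withdrawal. In the Ion Proton run the log2 ratio was 0.95 ± 2.09 in the controls and 1.32 ± 0.72 after withdrawal (SD, n = 2 each, exact permutation p = 1.0). The other arm of the miR-144 hairpin, miR-144-5p, had 2.61 to 5.45 CPM in the Ion Proton libraries and 22.0 to 34.6 RPM in the SOLiD libraries. It thus gave 1.06 to 3.38 reads for each read of miR-144-3p in the Ion Proton run and 11.3 to 15.1 in the SOLiD run.

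The lymphocyte miRNA miR-150-5p was at the edge of detection in the Ion Proton run. It had 0 and 13 reads in the controls and 11 and 0 reads after withdrawal, where 0 reads allow up to 0.387 CPM in control replicate 1 and 0.496 CPM in withdrawal replicate 2. In each group 1 library was thus at 0, and the other had 1.81 CPM (control) or 1.69 CPM (withdrawal). The log2 fold change of -0.04 had an SE of 2.08 (edgeR adjusted p = 0.993), and the libraries within each group lay farther apart than the group means. In SOLiD total RNA it had 516 RPM (95% Wilson interval 498 to 535) in the control and 419 RPM (407 to 430) after withdrawal. In the 25 to 40 nt RNA it had 407 RPM (394 to 421) in the control and 601 RPM (578 to 626) after withdrawal. The log2 ratios were -0.30 and 0.56, the same directions as for miR-451a. miR-150-3p, the other arm, was listed in the SOLiD table with 0.246 to 1.04 RPM.

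**Figure D2:**
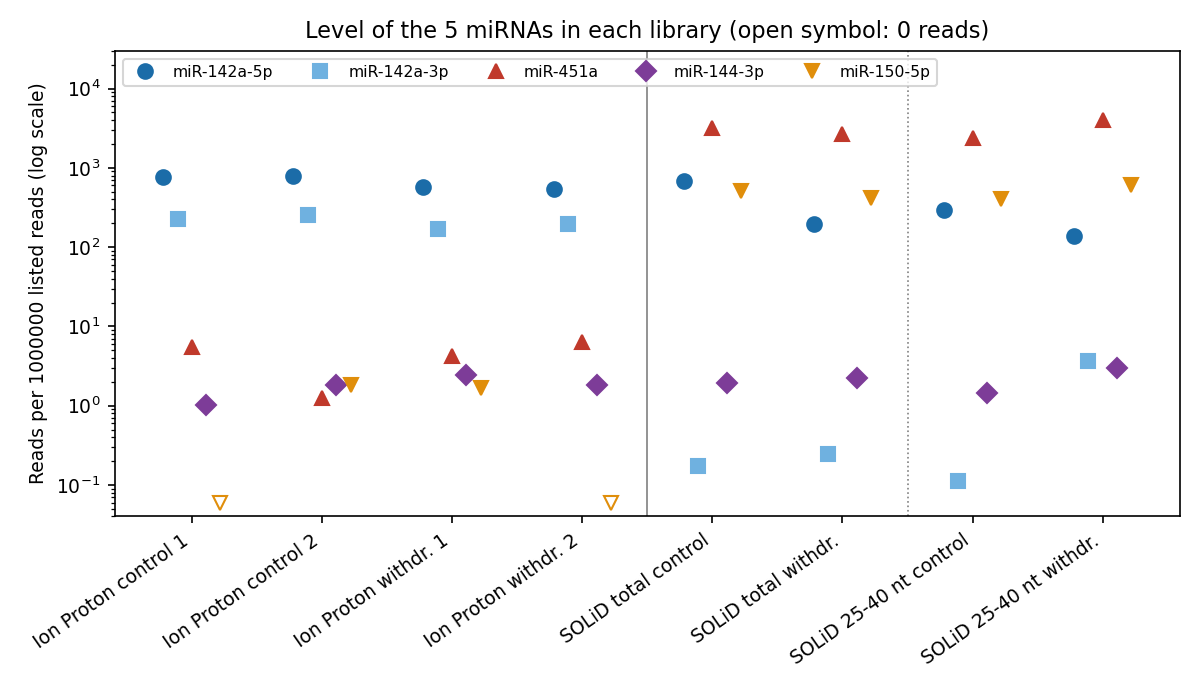
Reads per 1000000 listed reads (log scale) of the 5 miRNAs in each of the 8 libraries, with Ion Proton libraries left of the solid line, SOLiD total RNA between the lines and 25 to 40 nt RNA on the right. Both miR-142a arms exceed 100 CPM in the Ion Proton run, miR-451a and miR-150-5p exceed 400 RPM in the SOLiD run, and miR-144-3p stays between 1.03 and 2.97 throughout.

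The order of the members thus changed with the run. In the Ion Proton controls miR-142a-5p was followed by miR-142a-3p, and the values of miR-451a, miR-144-3p and miR-150-5p overlapped at 0 to 5.54 CPM. After withdrawal miR-451a (4.29 and 6.44 CPM) lay above miR-144-3p (2.45 and 1.82 CPM), which lay above miR-150-5p (1.69 and 0 CPM). In withdrawal replicate 1 the counting intervals of these 3 overlapped between neighbours (2.97 to 6.21, 1.51 to 3.99 and 0.942 to 3.02 CPM), so their order there is not settled. In the SOLiD control of total RNA the order was miR-451a, miR-142a-5p, miR-150-5p, miR-144-3p and miR-142a-3p. In the other SOLiD libraries miR-150-5p lay above miR-142a-5p, and the counting intervals of these neighbours did not overlap in any of the 4. The last neighbours, miR-144-3p and miR-142a-3p, had overlapping intervals in the 25 to 40 nt withdrawal library, at 2.97 and 3.71 RPM with the order turned.

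Both runs were also fitted together with treatment and run as terms, on the 6 libraries of total RNA (limma on log2 of CPM or RPM plus 1). Of the 1708 features with at least 5 reads in each run, 17.2% passed the threshold, and none of the 4 members tested did. With 1 library left out the number of features called went from 294 to between 15 (without withdrawal replicate 1) and 571 (without either SOLiD library). miR-142a-3p was not tested, since it had 4 reads in the SOLiD libraries. The log2 fold changes were -0.90 (SE 0.28, adjusted p = 0.0790) for miR-142a-5p, 0.38 (adjusted p = 0.581) for miR-451a, 0.31 (adjusted p = 0.424) for miR-144-3p and -0.12 (adjusted p = 0.878) for miR-150-5p. The direction of miR-451a turned with voom (-0.62) and with edgeR on the recovered reads (-0.080), and that of miR-150-5p when scaled to miRNA reads (0.33). Leaving out control replicate 2 turned both (-0.15 and 0.28), and leaving out withdrawal replicate 2 turned miR-150-5p (0.26). Of the 4, miR-142a-5p alone had an unadjusted limma p under 0.05, and the share of all features at that p was not counted. None of the 4 passed with voom or with edgeR on the recovered reads. With either SOLiD library left out, which leaves the estimate to the Ion Proton run, miR-142a-5p had a log2 fold change of -0.47 with adjusted p-values of 0.00770 and 0.00663. Scaled to miRNA reads it was -0.28 (adjusted p = 0.440).

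**Figure D3:**
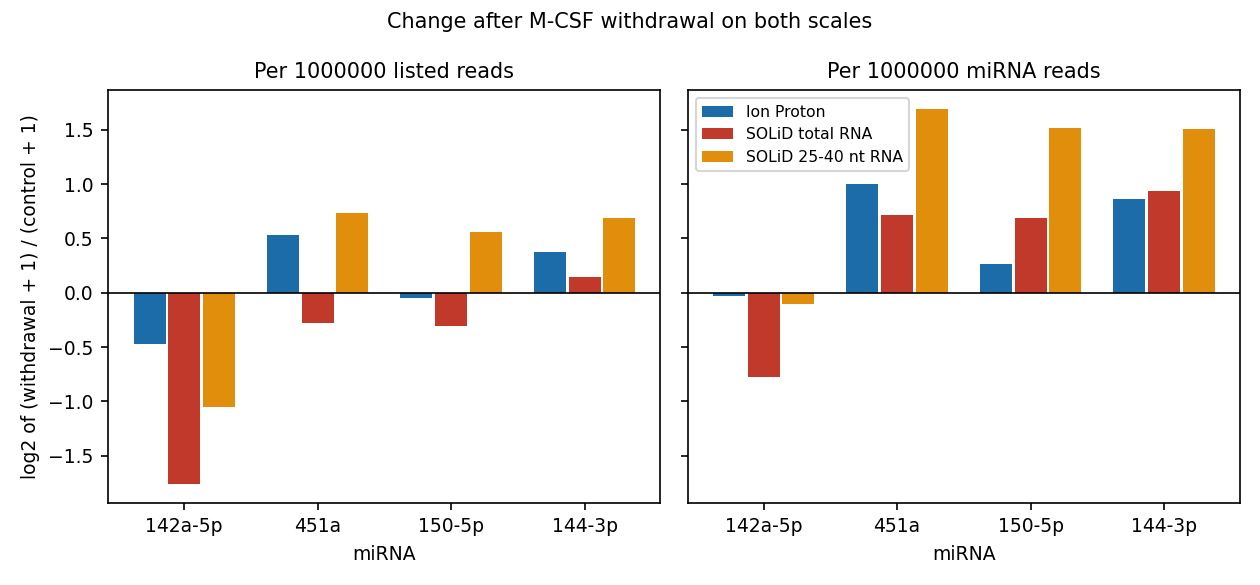
log2 of the level after withdrawal plus 1 over the control level plus 1, for 4 miRNAs in the Ion Proton run (means of 2 libraries) and both kinds of SOLiD library (1 library each), per 1000000 listed reads on the left and per 1000000 miRNA reads on the right. miR-142a-5p is below 0 in all 3 comparisons on the left, and on the right its bars move to -0.03, -0.77 and -0.11 while miR-451a, miR-150-5p and miR-144-3p lie above 0.

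Other miRNAs of the same lineages, listed by name, placed the members among their kind. Of 6 myeloid miRNAs, 2 fell and 4 did not pass the test in the Ion Proton run, where 8.97% of all features and 13.3% of mature miRNAs fell. The median log2 fold change of the 6 was -0.29, beside -0.39 for all mature miRNAs and 0.08 for all features. All 6 had means above 10 CPM, a level at which 73 of 186 mature miRNAs fell and the median was -0.37. miR-342-5p, processed from an intron of the gene Evl, fell by 1.05 on the log2 scale (edgeR adjusted p = 0.00273). miR-223-5p, of the granulocyte and monocyte miRNA miR-223, fell by 1.14 (adjusted p = 0.00272) and is named here after its values were seen. The other arm, miR-223-3p, had -0.37 and did not pass (adjusted p = 0.0785), and with TMM over miRNA features it had -0.06 (adjusted p = 0.795). The inflammatory regulators miR-146a-5p (-0.21, adjusted p = 0.180) and miR-155-5p (0.22, adjusted p = 0.221) and miR-342-3p (-0.14, adjusted p = 0.678) did not pass. With TMM over miRNA features, both falls still passed (-0.74 and -0.82) and miR-155-5p rose by 0.53 (adjusted p = 0.0448). These myeloid miRNAs were present in both runs, with miR-146a-5p at 7436 to 9638 CPM and at 6550 to 42421 RPM. Levels were far apart for miR-223-3p, with a mean of 90.1 CPM in the Ion Proton controls and 11725 RPM in the SOLiD control of total RNA.

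Of 5 miRNAs of the lymphoid list, 4 were tested and 3 fell, beside the same shares of 8.97% and 13.3%. The 4 had a median log2 fold change of -0.55. All 4 had means above 10 CPM, a level at which 73 of 186 mature miRNAs fell and the lower quartile was -0.55. The 3 that fell were miR-181a-5p (-0.50, edgeR adjusted p = 0.00913), miR-181b-5p (-0.59, adjusted p = 0.00714) and miR-181d-5p (-0.61, adjusted p = 0.00814), while miR-181c-5p had -0.31 (adjusted p = 0.157). With TMM over miRNA features, 1 of the 4 passed, miR-181b-5p (-0.28, adjusted p = 0.0454), and miR-181a-5p had -0.19 (adjusted p = 0.118). The miR-181 family tunes antigen receptor signalling in lymphocytes and is also made in other cells. In contrast to miR-150-5p, miR-181a-5p was abundant in the Ion Proton libraries, at 6303 to 9722 CPM.

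None of the 5 further erythroid miRNAs passed in edgeR or DESeq2, where 24.6% of all features and 14.7% of mature miRNAs passed in edgeR. The 2 with an unadjusted edgeR p under 0.05, miR-486a-5p and miR-486b-5p, share their reads and are not separate results. The share of all features at that unadjusted p was not counted. The median log2 fold change of the 5 was 0.38. miR-486a-5p and miR-486b-5p, which share reads because their mature sequences are the same, had log2 fold changes of 0.42 and 0.43 (edgeR adjusted p = 0.0733 and 0.0720), with 209 and 219 CPM in the controls against 253 and 301 CPM after withdrawal for miR-486a-5p. miR-144-5p had 0.38 (adjusted p = 0.618) and miR-486a-3p -0.43 (adjusted p = 0.469). With TMM over miRNA features, miR-486a-5p and miR-486b-5p rose by 0.74 each (adjusted p = 0.0130 and 0.0129). Unlike miR-451a, miR-486a-5p had like levels in the runs, with 307 to 455 RPM in the SOLiD libraries. There were thus 0.00571 to 0.0265 reads of miR-451a for each read of miR-486a-5p in the Ion Proton run and 7.70 to 8.76 in the SOLiD run.

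The SOLiD libraries also held miRNAs that mark epithelium, striated muscle and liver. There miR-451a and miR-150-5p kept nearly fixed proportions to those of epithelium and liver and to the neuronal miR-9-5p. Of 19 miRNAs listed as markers of endothelium, mesenchyme, muscle, liver, neurons or epithelium, 17 were listed in the SOLiD table, none of them at 0 reads, and the Ion Proton table listed 9. The epithelial miR-205-5p, which the Ion Proton table does not list, had 4790 and 3832 RPM in SOLiD total RNA and 3547 and 5586 RPM in the 25 to 40 nt RNA, control before withdrawal. It ranked between 18 and 36 among mature miRNAs there. The liver miRNA miR-122-5p had 52.7 to 89.6 RPM in the SOLiD libraries and a single read over the Ion Proton libraries. The muscle miRNA miR-133a-3p had 207 to 394 RPM in the SOLiD libraries. Of these markers 8 were tested in the Ion Proton run, where 24.6% of all features and 14.7% of mature miRNAs passed. The epithelial miR-200c-3p fell by 1.09 on the log2 scale (edgeR adjusted p = 0.0292) while the other 7 did not pass. With TMM over miRNA features that fall did not pass (-0.78, adjusted p = 0.0814) and miR-141-3p rose by 2.31 (adjusted p = 0.0372). The defining muscle and neuron miRNAs miR-1a-3p and miR-124-3p were listed in neither table.

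The comparison of proportions was chosen after these values had been seen and is a description over 4 libraries of 1 run. There were 0.674 to 0.714 reads of miR-451a for each read of miR-205-5p, and 43.9 to 45.4 for each read of miR-122-5p. For miR-150-5p there were 0.280 to 0.292 reads for each read of the epithelial miR-200b-3p, and 1.31 to 1.37 for each read of miR-486a-5p. Across the 4 SOLiD libraries the log2 ratio to miR-122-5p had an SD of 0.020 for miR-451a, and the log2 ratio to miR-200b-3p an SD of 0.025 for miR-150-5p. Of 209 mature miRNAs with at least 100 reads in each SOLiD library, 20 had an SD under 0.1 to miR-451a and 22 to miR-150-5p, where the median SD was 0.79 and 0.73. Among the marker lists, the SD was under 0.1 for 5 of 6 epithelial miRNAs with miR-451a and for 6 of 6 with miR-150-5p. It was also under 0.1 with both for the liver miR-122-5p and the neuronal miR-9-5p (0.036 and 0.045). It was not for the endothelial miR-126a-3p (0.22 and 0.17), either of the 2 muscle miRNAs or any of 3 mesenchymal ones. Counting error adds to the SD at low depth, and the lists differed in depth. The lowest library had 103 reads of miR-206-3p, 222 of miR-9-5p and 1593 of miR-133a-3p, against 1061 or more for each epithelial miRNA. For each read of miR-133a-3p there were 10.1 to 12.1 reads of miR-451a and 1.52 to 1.97 of miR-150-5p. No miRNA came under 0.1 for miR-142a-5p, whose reads for each read of miR-205-5p went from 0.0251 to 0.141. The nearest to miR-142a-5p were miR-106b-5p (SD 0.19) and miR-21a-5p (SD 0.26), which took 13.6 to 43.8% of the miRNA reads of these libraries.

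**Figure D4:**
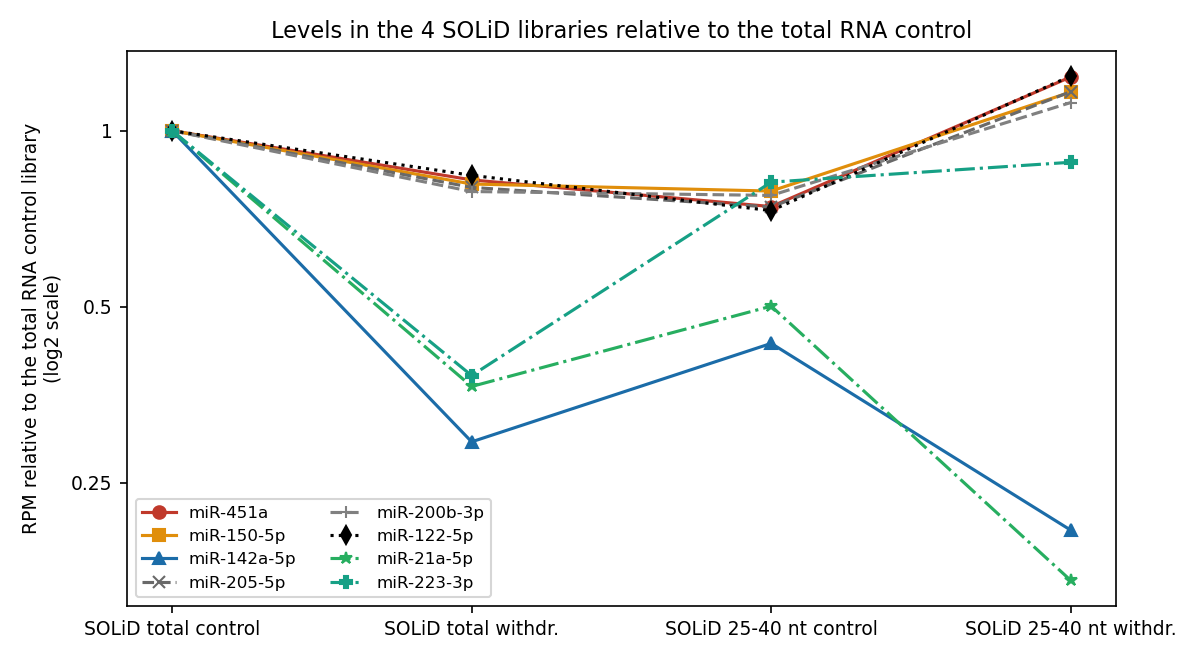
RPM of 8 miRNAs in the 4 SOLiD libraries, each divided by its RPM in the total RNA control (log2 scale, 1 library per point, lines join points of a miRNA). miR-451a and miR-150-5p run with the epithelial and liver miRNAs miR-205-5p, miR-200b-3p and miR-122-5p, at 0.730 to 1.24, whereas miR-142a-5p falls to 0.294 in the total RNA withdrawal library and 0.208 in the 25 to 40 nt one.

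Of the 17 markers, 16 were lower after withdrawal in SOLiD total RNA and higher in the 25 to 40 nt RNA, the directions of miR-451a and miR-150-5p. The exception miR-214-3p had log2 ratios of -0.44 and -0.05. The share of all features with these directions was not counted. At 10 RPM or more in both libraries, the median log2 ratios were -0.71 and -0.81 for mature miRNAs and 0.43 and 0.90 for all features. The ratios of the markers spanned -0.87 to -0.18 in total RNA and -0.05 to 0.93 in the 25 to 40 nt RNA. The log2 ratio of RPM plus 1 was -0.32 and 0.66 for miR-205-5p, against -0.28 and 0.74 for miR-451a. The Ion Proton table listed 9 of the markers, at 7.24 CPM or less apart from the mesenchymal miR-143-3p (9.05 to 18.7 CPM). In that run miR-451a had 1.25 to 6.44 CPM and miR-150-5p 0 to 1.81 CPM. miR-486a-5p, near to miR-150-5p in proportion in the SOLiD run, had means of 214 CPM in the Ion Proton controls and 277 CPM after withdrawal. Whether RNA of other tissues or of another sample entered the SOLiD libraries, and its part in the levels of miR-451a and miR-150-5p in them, was not tested.

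The difference between runs was large for 3 of the members even beside other miRNAs. Among 340 mature miRNAs with at least 10 miRNA RPM in either control set, the log2 ratio of the SOLiD control to the mean Ion Proton control had a median of 1.02 and quartiles of -2.37 and 3.77. It was 8.71 for miR-451a, the rank 3 from the highest, and 7.63 for miR-150-5p, the rank 10. It was -8.91 for miR-142a-3p, the rank 4 from the lowest, and -1.19 for miR-142a-5p. After withdrawal the ratios were 8.42, 8.06, -8.56 and -1.94. The runs differed in library kit, platform, mapping and RNA preparation, and in the tissue markers described above, which cannot be told apart.

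**Figure D5:**
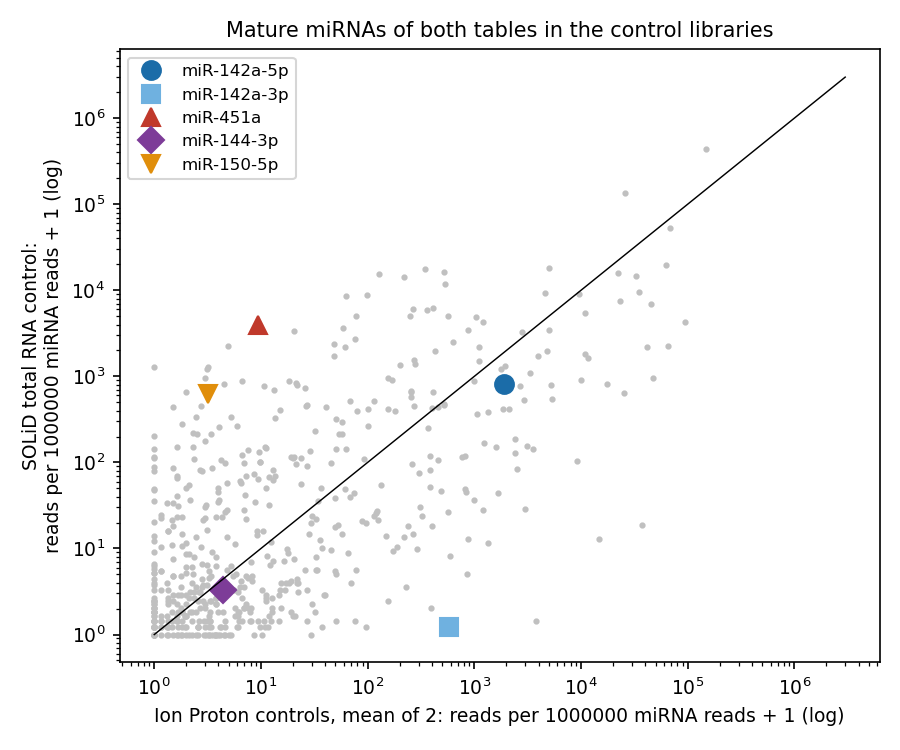
Mature miRNAs of both tables in control cells (grey points), as miRNA RPM plus 1 on log scales, with the mean of 2 Ion Proton libraries on the horizontal and the SOLiD control of total RNA on the vertical axis; the line marks equality. miR-451a and miR-150-5p lie far above the line, miR-142a-3p far below it, and miR-142a-5p and miR-144-3p near it.

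miR-142a-5p was the only member whose mean reached 10 CPM in the Ion Proton and 10 RPM in the SOLiD table, so it was the member whose pattern could be set beside others over all 8 libraries. Among 145 such miRNA features, those with the highest Pearson correlation of log2 miRNA RPM plus 1 were miR-140-3p (r = 0.98), miR-1843a-5p (r = 0.97) and miR-1843b-5p (r = 0.97). The points share the runs, which set most of the spread.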

How the data were processed

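Small RNA was sequenced in 8 libraries of mouse BMDMs. The authors trimmed the Ion Proton reads with cutadapt 1.2.1, dropped reads under 15 bases, mapped to mm10 with Bowtie2 2.2.4 with up to 10 places per read, and deposited raw read counts per feature (miRBase release 21, tRNAs and Ensembl non-coding RNAs). For the SOLiD run, the authors mapped with LifeScope and deposited RPM, reads per 1000000 listed reads. All RPM values (100%) were whole multiples of 1 read within 0.01, so reads were recovered. Tables were joined by accession, because the SOLiD table uses older miRNA names.

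The counts were tested in edgeR 4.0.16 (TMM, quasi-likelihood test, summed count of at least 5), with SE taken from the fold change and its F value. Both runs were tested with limma 3.58.1 (trend, treatment and run as terms, summed count of at least 5 per run, pseudocount 1), and DESeq2 1.42.0 was an alternative, in R 4.3.3. P-values were adjusted by Benjamini and Hochberg over all features, with a threshold of 0.05. Single values were compared by exact permutation in Python 3.11.15 with numpy 2.4.6, scipy 1.17.1 and pandas 2.3.3. The fits were also run on simulated data with a fixed spread between replicates and no run effect, which checks the code and not these libraries. Intervals are 95% (Wilson for shares, Clopper-Pearson for ratios), and a count of 0 allows up to 3 reads. Nothing in the labels says whether replicates came from separate animals, so p-values measure the spread between these samples. Same-numbered Ion Proton libraries did not deviate together (r = 0.0056 over 852 features), so replicates were not treated as pairs. The members and lists were chosen with earlier results of these data known. Named features were the members, products of their hairpins, up to 4 miRNAs per list with the highest mean CPM, the 3 most alike to a member, both arms of miR-223, and miR-21a-5p.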

Additional observations from a re-analysis of the deposited data

Results flagged for a closer look

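Compared between RNA preparations of the SOLiD run, 2 of the members changed in opposite directions after M-CSF withdrawal on the scale of listed reads. The log2 ratio of RPM plus 1 of miR-451a was -0.28 in total RNA and 0.74 in the 25 to 40 nt RNA, a difference of 1.02. For miR-150-5p it was -0.30 and 0.56, a difference of 0.86. The difference was not tested, since there was 1 library per condition and preparation. The mature miRNAs printed above are shorter than the range of 25 to 40 nt, so these values are not levels in a fraction selected for them. In reads per 1000000 miRNA reads both were higher after withdrawal in both preparations, and the epithelial miR-205-5p had -0.32 and 0.66 in the same libraries. The RNA integrity numbers in the labels were 8.4 and 7.5 for total RNA and 2.7 and 2.6 for the 25 to 40 nt RNA, control before withdrawal, and their part in the result was not tested. Dixon's rule for outlying samples could not be applied, as no group had more than 2 libraries.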

How the results depend on the processing

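For the Ion Proton run, the log2 fold change of miR-142a-5p was below 0 in all 11 alternatives and passed the threshold in 6 (adjusted p from 8.98e-05 to 0.529). It did not pass with TMM over miRNA features (-0.10, adjusted p = 0.412), with miRNA features only (-0.10, adjusted p = 0.529), with a replicate block (-0.42, adjusted p = 0.0527), or without either withdrawal library. The replicate block made 361 calls against 500 and gave miR-150-5p a log2 fold change of 0.15. It changed no other member's call. DESeq2 gave miR-150-5p no adjusted p. miR-142a-3p passed with DESeq2 (-0.46, adjusted p = 0.0220) and without control replicate 1 (-0.53, adjusted p = 0.0414), where its adjusted p ranged from 0.0220 to 0.941 over the alternatives. miR-150-5p turned to 0.31 with TMM over miRNA features and 0.30 with miRNA features only, and miR-451a passed without control replicate 1 alone. With a library left out, the ranges were -0.53 to -0.22 for miR-142a-3p, -0.56 to -0.38 for miR-142a-5p, -5.66 to 5.58 for miR-150-5p, 0.011 to 2.02 for miR-451a, 0.18 to 1.10 for miR-144-3p, and 299 to 528 calls, the lowest (299 and 312) without withdrawal replicate 1 and 2. With miRNA features only, 744 were tested and 39 called. Of the calls, 318 of 500 were higher after withdrawal, against 413 of 493 with TMM over miRNA features and 232 of 470 with DESeq2. TMM over miRNA features moved the median of all features from 0.08 to 0.39 on the log2 scale, and DESeq2 moved it to -0.04.

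For both runs, miR-142a-5p passed when values were centred on the median (-1.20, adjusted p = 0.0459), without the SOLiD control or withdrawal library (both -0.47), and in no other alternative. miR-150-5p turned to 0.33 when scaled to miRNA reads. miR-451a turned to -0.62 with voom and to -0.080 with edgeR on recovered reads, an alternative chosen after seeing the data that made 273 calls. With a library left out, the ranges were -1.04 to -0.47 for miR-142a-5p, -0.57 to 0.28 for miR-150-5p, -0.15 to 0.72 for miR-451a, 0.15 to 0.42 for miR-144-3p, and 15 to 571 calls against 294 (83 and 19 without control replicate 1 and 2, 15 and 16 without withdrawal replicate 1 and 2, 571 without either SOLiD library). Of these calls 198 of 294 were higher, against 296 of 297 when scaled to miRNA reads and 178 of 404 when centred, and the median of all features went from 0.16 to 0.68 and -0.14.

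Scaled to miRNA reads, and to miRNA reads without miR-21a-5p, the SOLiD log2 ratios in total RNA were -0.77 and -1.05 for miR-142a-5p, 0.69 and 0.41 for miR-150-5p, and 0.71 and 0.43 for miR-451a. In the 25 to 40 nt RNA they were -0.11 and -0.23, 1.51 and 1.39, and 1.69 and 1.57. miR-142a-3p had 0.77 there with a pseudocount of 5. Taken over all listed reads, the share of miR-142a-3p in the Ion Proton run was 56.6 reads per 1000000 lower after withdrawal (-56.6) and that of miR-150-5p differed by -0.062. With a library left out, differences per 1000000 miRNA reads ranged from -16.5 to 57.7 for miR-142a-3p, -83.7 to 10.1 for miR-142a-5p, -2.18 to 3.45 for miR-150-5p, 4.06 to 14.8 for miR-451a and 2.54 to 4.73 for miR-144-3p. The log2 ratio of miR-142a-3p to miR-142a-5p differed by -0.05 to 0.20 and that of miR-451a to miR-144-3p by -1.11 to 1.85. The causes were not tested. miR-150-5p in the Ion Proton run, miR-142a-3p in the SOLiD run and miR-144-3p in both runs had few reads, each under 30 per library. miR-451a had 9 to 43 reads in the Ion Proton libraries.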
